A study of Rattus norvegicus with 18 samples.

Results

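The comparison described here set all 12 injured rats against the 6 naive rats, in a series of 18 dorsal root ganglion (DRG) libraries from Lister Hooded rats, across every gene that could be tested. Its members are fixed by the labels and not by any measured value: 6 rats of the bPYX+GFP group and 6 of the bPYX+NT3 group make up the injured side. Naive rats had no operation and no vector. Both injured groups had a bilateral pyramidotomy (bPYX), which severs the corticospinal tracts in the medulla, and were injected a day later, on the treated side, in forelimb flexor muscles, with an adeno-associated virus of serotype 1. The virus carried a CMV promoter driving either green fluorescent protein (AAV1-GFP) or human neurotrophin-3 (AAV1-NT3). The C6 to C8 ganglia of the treated side were pooled into 1 library per rat, in the injured rats at 10 weeks from the operation. No group had injury without vector or vector without injury, so what these rats shared (operation, virus, muscle injection, handling and time) cannot be told apart from the injury itself. Rats are named by the number their column carries.

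A DRG holds the cell bodies of sensory neurons together with satellite glia, which wrap the cell bodies, Schwann cells, which wrap and myelinate the axons, and the fibroblasts, vessels and immune cells of the tissue. Pyramidotomy does not cut the axons of these neurons. It removes descending input to the spinal cord circuits that proprioceptive and cutaneous afferents also reach. Schwann cell myelin is built from a small set of abundant proteins and from membrane rich in cholesterol, galactosylceramide and sulfatide, under the control of transcription factors such as Egr2. Capillaries of the ganglion are more leaky than those of the nerve, and endothelial identity rests on receptors for vascular growth factors and on Notch signalling. In bulk tissue, fewer cells of a type and less RNA per cell cannot be told apart.

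Read-pairs assigned to genes ranged from 10057787 to 16002410 per library. No difference in their total was called between the groups (exact permutation p = 0.462, two-sided), nor did the shares of read-pairs that fell outside genes, overlapped several genes or mapped to several places (exact permutation p = 0.472, 0.257 and 0.496). Rat 57 (bPYX+GFP) and rat 11 (bPYX+NT3) stood apart in these shares, with 31.7% and 30.8% of read-pairs outside genes against 32.5% to 34.6% in the other rats. Counts without them are given below, as a choice made after seeing the data. The column of each rat number equalled the deposited file of the same rat in 18 of 18 rats, and the sample number heading each column gave the condition used here in 18 of 18. For 17 rats the record to which that file was attached bore the title of another group, so the grouping by title is treated only as an alternative. Marker lists of the tissue were present in every library: summed CPM (read-pairs scaled to the size of the library) of 12 neuronal identity genes were 4383 to 5217 in naive and 4813 to 6418 in injured rats, and those of 18 Schwann cell myelin genes were 5579 to 7846 and 4899 to 6205. Skeletal muscle markers summed to 14.2 to 47.5 CPM and central glia markers to 21.5 to 49.2 CPM over all rats.

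The first question was how many genes differed between injured and naive ganglia when both vector groups are pooled. Of 11821 genes that exceeded 10 reads in 6 rats or more, 0 passed an adjusted p of 0.05 in edgeR's quasi-likelihood test, and the smallest adjusted p was 0.143, shared by 8 genes. At an unadjusted p under 0.05, 158 genes were higher in the injured rats (1.34% of those tested) and 363 were lower (3.07%), together 521 genes or 4.41%. An even spread of p values would put 591 genes there. The edgeR likelihood ratio test called 23 genes at an adjusted p under 0.05, DESeq2 called 20 and limma-voom called 0. The first pair of tools shared 19 genes, 17 of them lower and 2 higher in injured rats. Leaving out bPYX+NT3 rat 17 gave 2 genes (Ccnd1 and Emp2) in the quasi-likelihood test. The number of higher genes moved from 78 without naive rat 45 and 94 without naive rat 44 to 252 without naive rat 42 and 278 without naive rat 41, while the number of lower genes stayed between 269 and 466. Because no gene passed the adjusted threshold, "rose" and "fell" below mean an unadjusted p under 0.05, the threshold the study used, and every gene so named had an adjusted p between 0.143 and 0.893. The p printed with a named gene is that of a two-sided exact permutation test over the 12 and 6 rats ("exact p"). Of 76 genes named as past that threshold here or in the closing observations, 11 had an exact p of 0.05 or more. These were Car1, Car3, Hemgn, Slc4a1, Ahsp, Ccnb2, Mki67, Hmgcs1, Atp2a1, Mx2 and Dohh. Scarce genes could be tested only because of the group in which they were high: this held for 28 of the 158 higher genes and 10 of the 363 lower genes, whose lower group alone had fewer than 6 rats over 10 reads. Among the named genes they were Lin28a, Flt4, Ampd1, Kcnj4, Tfpi2, Nxph3, Atp2a1, Crabp1 and Dohh, and their values are a description.

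**Figure D1:**
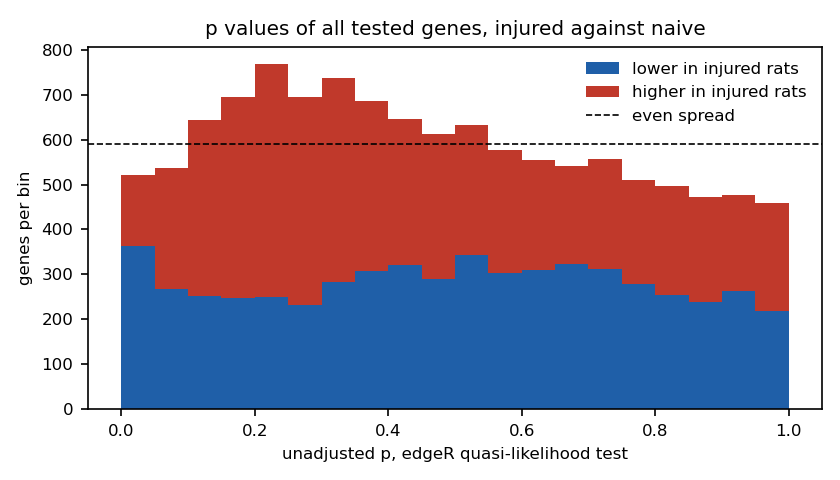
Number of genes (vertical axis) in each of 20 bins of unadjusted p (horizontal axis) for injured against naive rats, split into genes lower (blue) and higher (red) in injured rats, with a dashed line at an even spread of 591 genes. The lowest bin holds 521 genes, under the line, and the fullest bin holds 768.

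Changes were small. The median absolute log2 fold change was 0.27 among the 521 genes and 0.08 among all genes tested, and 441 of the 521 changed by less than 0.5 on the log2 scale, while 7 changed by more than 1. Lower genes made up 69.7% of them, although 47.8% of all tested genes had a log2 fold change below 0 and the median over all genes was 0.0060. Among the genes tested, Flt4 was the only gene for which all 12 injured rats lay on the same side of all 6 naive rats, 1 gene higher (0.00846% of those tested) and 0 lower (0%). Flt4 was tested only through the group where it was high, so this separation is a description.

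Emp2, which encodes a tetraspan membrane protein of the family of the myelin protein Pmp22, had the smallest p. Its normalized count, scaled to a library of 12850748 read-pairs, was 1196 at the lowest, 1349 at the median and 1629 at the highest in naive rats, and 959.5, 1068 and 1284 in injured rats. Of the 12 injured rats, 11 lay below every naive rat. The log2 fold change was -0.36 (SE 0.07, exact p = 0.000215, adjusted p = 0.143). Lin28a, an RNA-binding protein that blocks maturation of let-7 microRNAs, was scarce, at 10.6 to 18.5 (median 15.1) in naive and 5.41 to 10.8 (median 7.91) in injured rats, and 11 injured rats again lay below every naive rat. It was tested only because all 6 naive rats exceeded 10 reads, which 1 injured rat did. It fell by 0.89 on the log2 scale (SE 0.16, exact p = 0.000215, adjusted p = 0.143). These p values of Lin28a are a description and no support, since the filter let it in through its high naive values. Ccnd1, the cyclin D1 that drives entry into the cell cycle, read 590.3 to 761.7 (median 687.3) in naive and 426.2 to 677.9 (median 494.6) in injured rats, and a single injured rat overlapped the naive range. It fell by 0.42 (SE 0.08, exact p = 0.000431). Myoc, a secreted glycoprotein made by myelinating Schwann cells, read 4370 to 5807 (median 5157) against 3316 to 5059 (median 3914), and 10 of 12 injured rats lay below the naive range, at a log2 fold change of -0.38 (SE 0.08, exact p = 0.000754). The smallest exact p that 12 rats against 6 can give is 0.000108.

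Genes of the myelin sheath were lower after injury. All 18 tested members of the list of Schwann cell myelin proteins had a log2 fold change below 0, with a median of -0.24, and 9 of them fell while 0 rose, beside 3.07% of all genes that fell. Mal, a proteolipid of compact myelin, read 6279 to 9928 (median 7134) in naive and 4395 to 6706 (median 5527) in injured rats. Of the injured rats, 11 lay below every naive rat, and the log2 fold change was -0.45 (SE 0.09, exact p = 0.000431, adjusted p = 0.143). Pmp22, a peripheral myelin protein altered in inherited neuropathy, read 21233 to 32583 (median 26124) and 17746 to 24829 (median 21086), so that 6 injured rats lay under the naive range, at -0.31 (SE 0.08, exact p = 0.00259). Plekhb1, a membrane-binding protein with a PH domain, fell by 0.25 (SE 0.07, exact p = 0.00506), and Pmp2, the fatty acid-binding P2 protein, fell by 0.53 (SE 0.15, exact p = 0.00980). Their injured and naive ranges overlapped, with 6 and 5 injured rats below every naive rat.

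The size of the myelin result depended on the libraries that stood apart. Without rats 57 and 11, a choice made after seeing the data, 14 of 18 members fell and the median was -0.32, where 2.85% of all genes fell and 1.1% rose. With the share of read-pairs outside genes as a covariate, 15 of 18 fell and the median was -0.30, where 4.31% of all genes fell and 2.26% rose. Within the vector groups, which share the same 6 naive rats, 10 members fell in bPYX+GFP rats (median -0.31) and 5 in bPYX+NT3 rats (median -0.16). In those single-vector contrasts 2.36% and 2.71% of all genes fell, and 0.702% and 2.25% rose. Averaged over the list, the level of 10 of 12 injured rats was below the naive mean, but only 4 lay below every naive rat, since the lowest naive rat sat at -0.36 on the log2 scale. Naive rat 49 had the highest naive values of Mal, Pmp22, Plekhb1 and Pmp2 and the highest summed CPM of the list (7846). Over all genes the fewest fell when that rat was left out (269), and the members of this list were not counted without it.

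**Figure D2:**
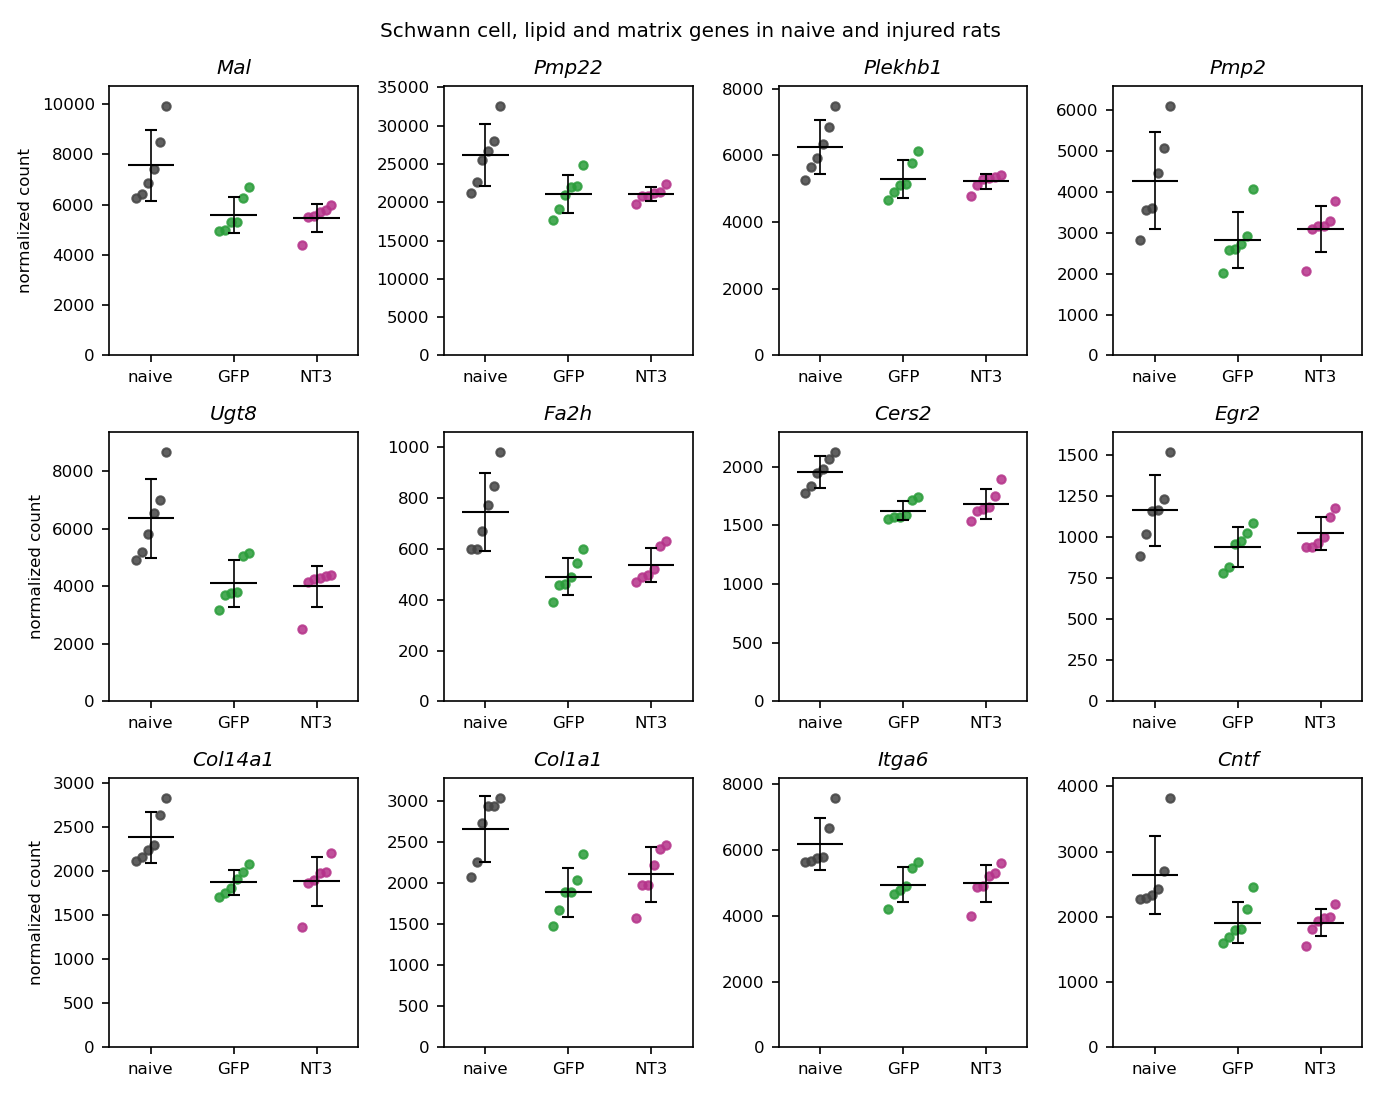
Normalized counts (vertical axes, from 0) of 12 Schwann cell, lipid, matrix and trophic genes in each rat of the naive, bPYX+GFP and bPYX+NT3 groups, with group means and SD as bars (n = 6 rats per group). For Mal, Col14a1, Itga6 and Cntf, 11 of 12 injured rats sit below every naive rat.

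Several enzymes of membrane lipid synthesis fell alongside. Of 19 tested genes of galactolipid and sphingolipid synthesis, 7 fell (36.8%, beside 3.07% of all genes) and 0 rose. A log2 fold change below 0 was found for 16 (47.8% of all genes had one), and the median was -0.10. As for every list here, the members were chosen with earlier results of these data known, so the shares and averages are a description. Averaged over this list, all 12 injured rats lay below the naive mean and 10 lay below every naive rat. Ugt8, the transferase that makes galactosylceramide, read 4900 to 8673 (median 6199) in naive and 2529 to 5174 (median 4220) in injured rats, with 10 injured rats below every naive rat. It fell by 0.65 (SE 0.13, exact p = 0.000431, adjusted p = 0.143). Fa2h, which adds the 2-hydroxyl group to the fatty acids of myelin lipids, read 598.9 to 981.7 (median 722.0) and 392.5 to 629.9 (median 492.5), and 9 injured rats lay below the naive range. It fell by 0.54 (SE 0.11, exact p = 0.00108). Cers2, the ceramide synthase for very long acyl chains, read 1773 to 2125 (median 1959) and 1538 to 1897 (median 1626). It changed little in size but with little spread, at -0.24 (SE 0.05, exact p = 0.000646), and 11 injured rats lay below every naive rat. B3gnt5, which starts the lacto-series glycosphingolipids, fell by 0.74 (SE 0.15, exact p = 0.00097) from a naive median of 418.7 to an injured median of 250.3. The count of 7 was also found without rats 57 and 11, where 2.85% of all genes fell, but the list median was then -0.04. With the share of read-pairs outside genes as a covariate 8 fell, beside 4.31% of all genes, and the median was again -0.04. Rats 11 and 57 had the lowest list averages of their groups, at -0.38 and -0.28.

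Cholesterol synthesis held fewer calls. Of 25 tested genes 3 fell (12%, beside 3.07% of all genes), 0 rose and 13 were below 0, with a median of -0.02. Nsdhl and Hmgcs1, enzymes of the sterol pathway, fell by 0.18 (SE 0.07, exact p = 0.0137) and 0.14 (SE 0.07, exact p = 0.0552) on the log2 scale. Each overlapped between the groups, with 4 and 4 injured rats below every naive rat. The call of Hmgcs1 was also made in 8 of the 18 fits that left out a rat, and was lost most clearly without naive rat 49. It was also not called without rats 57 and 11, which left 2 of the 25 genes lower.

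Among 17 tested regulators of the Schwann cell program 2 fell (11.8%, beside 3.07% of all genes) and 0 rose, with a median of -0.04. Egr2, the transcription factor that myelinating Schwann cells require, read 884.7 to 1521 (median 1164) in naive and 780.6 to 1177 (median 973.3) in injured rats, at -0.24 (SE 0.10, exact p = 0.0422), and its call was lost when naive rat 49 was left out. Tead1, a transcription factor of the Hippo pathway, fell by 0.28 (SE 0.13, exact p = 0.0246), a call also made in 13 of the 18 fits that left out a rat and lost most clearly without naive rat 49. Of 11 satellite glia markers 1 fell (9.09%, beside 3.07% of all genes) and 0 rose, with a median of 0.02. The list median was -0.16 for bPYX+GFP and 0.05 for bPYX+NT3 rats. List averages of single rats overlapped, at -0.30 to -0.03 with GFP and -0.16 to 0.33 with NT3, where only rats 2, 11 and 17 lay above the naive mean. There were 2 members (18.2%, beside 2.25% of all genes), named after their values were seen, that differed between the vectors at an unadjusted p under 0.05 (adjusted p = 0.816). Gfap, an intermediate filament of glia, was at -0.70 and 0.57 and Kcnj10, a potassium channel, at -0.29 and 0.13.

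Several extracellular matrix genes fell as well. Of 22 tested collagens and collagen-processing genes 7 fell (31.8%, beside 3.07% of all genes) and 0 rose, and the median was -0.12. Without rats 57 and 11 the number that fell was 9, where 2.85% of all genes fell. Col14a1, a fibril-associated collagen, read 2117 to 2825 (median 2266) in naive and 1369 to 2200 (median 1904) in injured rats. Of the injured rats, 11 lay below the naive range, and the log2 fold change was -0.34 (SE 0.08, exact p = 0.000323, adjusted p = 0.246). Col1a1 and Col3a1, the main fibrillar collagens of connective tissue, fell by 0.41 (SE 0.11, exact p = 0.00312) and 0.36 (SE 0.10, exact p = 0.00431), and 8 injured rats were below every naive rat for each. Col15a1, a collagen of basement membranes, fell by 0.31 (SE 0.08, exact p = 0.00377). P4ha1, a prolyl hydroxylase needed to fold collagen, fell by 0.29 (SE 0.08, exact p = 0.00409).

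Of 12 markers of fibroblasts and of the perineurium 1 fell (8.33%, beside 3.07% of all genes) and 0 rose, with a median of -0.15. Lum, the keratan sulfate proteoglycan lumican, was the gene that fell (log2 fold change -0.25, SE 0.12, exact p = 0.0489), and its call was also made in 8 of the 18 fits that left out a rat, and was lost most clearly without naive rat 42 and also without rats 57 and 11. Among 14 tested integrins, laminins and their partners, through which Schwann cells hold their basal lamina, 3 fell and 0 rose, with a median of -0.05. The share that fell was 21.4%, beside 3.07% of all genes. Itga6, the laminin-binding alpha-6 integrin, read 5636 to 7578 (median 5765) and 3988 to 5638 (median 4911), with 11 injured rats below every naive rat and a log2 fold change of -0.32 (SE 0.08, exact p = 0.000215). Lamc1, the gamma-1 chain of laminins, fell by 0.22 (SE 0.05, exact p = 0.00183), and the laminin receptor dystroglycan (Dag1) by 0.14 (SE 0.06, exact p = 0.0241), which was not called without naive rat 43.

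Of 15 trophic factors and receptors 1 fell (6.67%, beside 3.07% of all genes), 0 rose, and the median was -0.00037. Cntf, ciliary neurotrophic factor, which Schwann cells of the adult nerve store, read 2272 to 3820 (median 2378) in naive and 1559 to 2450 (median 1875) in injured rats. Of the injured rats, 11 lay below every naive rat, at -0.47 (SE 0.11, exact p = 0.00097, adjusted p = 0.246). The highest naive value was that of rat 49, and the call was also made without it.

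Several endothelial genes moved the other way. Of 23 tested endothelial markers 8 rose (34.8%, with Flt4 counted, beside 1.34% of all genes) and 0 fell. Of the 23, 2 had a log2 fold change below 0, and the median was 0.24. Averaged over the list, 11 of 12 injured rats lay above the naive mean, although 3 lay above every naive rat. Flt4, the receptor for the lymphatic growth factors VEGF-C and VEGF-D, was scarce, at 5.53 to 13.9 (median 10.4) in naive and 15.2 to 36.8 (median 17.1) in injured rats, and the groups did not overlap. All 12 injured rats but 3 naive rats exceeded 10 reads, so it was tested through the group where it was high. It rose by 1.00 on the log2 scale (SE 0.25, exact p = 0.000108, adjusted p = 0.266). These p values of Flt4 are a description and no support, since the filter let it in through its high injured values. Bcl6b, a transcriptional repressor of endothelial cells, read 185.4 to 226.0 (median 213.2) and 184.1 to 373.2 (median 310.9). For it 10 of 12 injured rats were above every naive rat and 1 was below, at 0.52 (SE 0.13, exact p = 0.00323, adjusted p = 0.249). Adgrl4, an adhesion receptor of vessels, rose by 0.37 (SE 0.13, exact p = 0.0300). Of the injured rats 9 lay above the naive range, and rat 57 was the lowest of the 18 at 453.5. Pecam1, the textbook endothelial junction marker, was named after its value was seen and missed the threshold (log2 fold change 0.25, SE 0.14, exact p = 0.108). Without rats 57 and 11, 6 of the 23 rose, beside 1.1% of all genes, and the median was 0.19. In the single-vector contrasts 5 rose in bPYX+GFP rats (median 0.18) and 9 in bPYX+NT3 rats (median 0.29). Of all genes 0.702% rose with GFP and 2.25% with NT3, so the counts of 5 and 9 stand beside unlike shares.

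Notch signalling, by which endothelial cells set sprouting, had 2 of 15 tested genes higher (13.3%, beside 1.34% of all genes) and 0 lower, with a median of 0.13. Without rats 57 and 11, 2 rose, beside 1.1% of all genes, and the median was 0.02. With the share of read-pairs outside genes as a covariate 2 rose, beside 2.26% of all genes, and the median was 0.05. Dll4, the Notch ligand of sprouting vessels, read 18.1 to 58.4 (median 46.1) and 50.5 to 107.3 (median 64.0), so that 7 injured rats were above every naive rat. It rose by 0.67 (SE 0.21, exact p = 0.00463). Dll4 was also counted among the endothelial markers that rose. Nrarp, a feedback target of Notch, rose by 0.39 (SE 0.13, exact p = 0.0123), from 118.8 to 158.2 in naive to 114.3 to 215.1 in injured rats, with 8 injured rats above the naive range. Pericyte and smooth muscle genes, the other cells of the vessel wall, gave 0 calls in either direction over 12 genes by the quasi-likelihood test, with a median of 0.03. Stc1, stanniocalcin 1, a secreted glycoprotein that many cells raise under low oxygen, was among the largest rises. It read 98.5 to 149.2 (median 119.0) in naive and 112.5 to 299.1 (median 220.0) in injured rats, with 10 injured rats above every naive rat and a log2 fold change of 0.83 (SE 0.20, exact p = 0.00205, adjusted p = 0.249). Of the 15 genes of the hypoxia list Stc1 alone rose and 2 fell (P4ha1, above, and Ndrg1 at -0.14, SE 0.06, exact p = 0.0220, not called without naive rat 49), and the median was 0.03. Those shares were 6.67% and 13.3%, beside 1.34% and 3.07% of all genes.

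**Figure D3:**
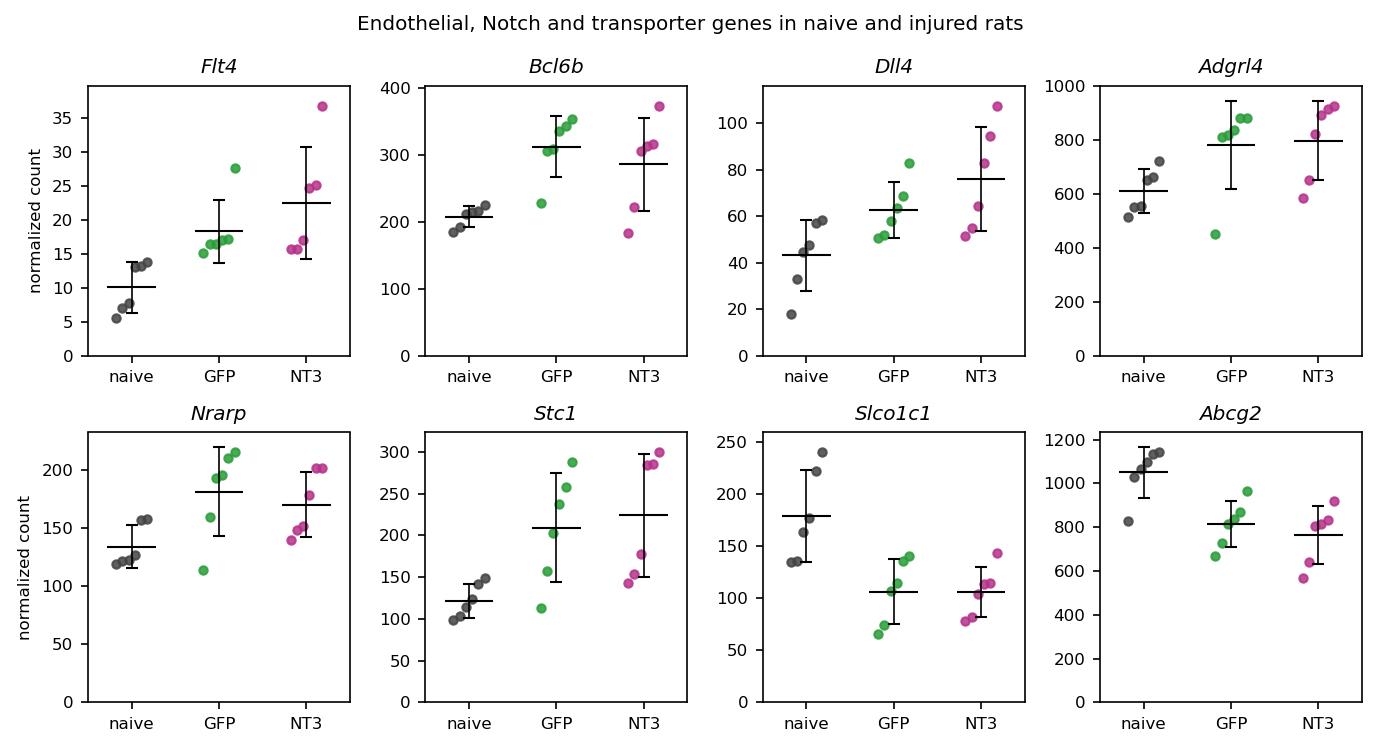
Normalized counts (vertical axes, from 0) of 8 endothelial, Notch, hypoxia and transporter genes in each rat of the naive, bPYX+GFP and bPYX+NT3 groups, with group means and SD as bars (n = 6 rats per group). Flt4, tested only through the group where it was high, separates all 12 injured rats from the 6 naive rats, and Slco1c1 and Abcg2 are lower in both vector groups.

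Some transporters of barrier vessels and glia fell. Of 16 tested barrier genes 3 fell (18.8%, beside 3.07% of all genes) and 0 rose, with a median of -0.01. Slco1c1, a carrier of thyroxine, read 135.3 to 240.1 (median 170.2) in naive and 65.6 to 143.4 (median 110.5) in injured rats, with 9 injured rats below the naive range. It fell by 0.76 (SE 0.17, exact p = 0.00097, adjusted p = 0.237). Abcg2, a drug efflux pump, fell by 0.41 (SE 0.10, exact p = 0.000862, adjusted p = 0.246), from 830.3 to 1142 in naive to 568.8 to 967.2 in injured rats. Slco1a4, an organic anion carrier, fell by 0.40 (SE 0.14, exact p = 0.00625). Among 11 tested genes of thyroid hormone handling 2 fell (18.2%, beside 3.07% of all genes) and 0 rose (median 0.04). These were Slco1c1 again, and Trhr, the receptor for thyrotropin-releasing hormone, at -0.64 (SE 0.17, exact p = 0.00183). Of 13 genes of retinoid metabolism 2 fell (15.4%) and 1 rose (7.69%, with Crabp1 counted), beside 3.07% and 1.34% of all genes (list median -0.03). Aldh1a1, which makes retinoic acid, read 560.0 to 769.8 and 353.3 to 602.8 and fell by 0.42 (SE 0.10, exact p = 0.00097). The receptor Rarb fell by 0.21 (SE 0.09, exact p = 0.0154), which was also lost without naive rat 45. The binding protein Crabp1 rose by 0.49 (SE 0.23, exact p = 0.0465). That call was also made in 8 of the 18 fits that left out a rat. It was lost most clearly without naive rat 45, and also without rats 57 and 11. Crabp1 exceeded 10 reads in 5 naive and 12 injured rats, so it was tested through the group where it was high. Its p values are a description and no support.

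The glucocorticoid, clock and immediate early lists held few calls. Zbtb16, a zinc finger factor induced by glucocorticoids, fell by 1.01 (SE 0.25, exact p = 0.00474, adjusted p = 0.280), from 31.1 to 105.6 (median 55.4) in naive to 14.6 to 49.4 (median 25.1) in injured rats, with 7 injured rats below the naive range. It was the only 1 of 18 glucocorticoid-responsive genes to change (5.56%, beside 4.41% of all genes in either direction), and their median was 0.05. Of 15 clock genes 1 rose (6.67%, beside 1.34% of all genes) and 0 fell, 11 were above 0 and the median was 0.14. The gene that rose was Cry2, a repressor of the clock, by 0.16 (SE 0.07, exact p = 0.0332). Of 16 immediate early genes Egr1 rose by 0.54 (SE 0.23, exact p = 0.0287) and Egr2 fell as above. Each was 6.25% of the list, beside 1.34% of all genes that rose and 3.07% that fell. In this list 13 genes were above 0 and the median was 0.14. The calls for Cry2 and Egr1 were also made in 11 and 12 of the 18 fits that left out a rat, and were lost most clearly without naive rats 44 and 49. With rats 57 and 11 left out Cry2 was not called, and the kinase Pdk4 of the glucocorticoid list rose.

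The largest fold changes belonged to scarce genes. Among genes with an unadjusted p under 0.05, at least 1 CPM on average and the same sign under both vectors, the 8 lowest log2 fold changes were Car1 (-1.64), Car3 (-1.47), Hemgn (-1.34), Slc4a1 (-1.25), Zbtb16 (-1.01), NM_022183 (-0.88), Ahsp (-0.86) and Cenpf (-0.85). Car1, Hemgn, Slc4a1 and Ahsp are genes of developing red blood cells, Car3 is a carbonic anhydrase of fat and muscle, Cenpf acts at the centromere in mitosis, and NM_022183 had no matched symbol. Ctsg (-1.02), a protease of granulocytes and mast cells, was past the threshold but under 1 CPM. Car1 read 8.13 to 202.2 (median 22.2) in naive and 4.86 to 44.6 (median 12.7) in injured rats, with an SE of 0.56 (exact p = 0.103). Slc4a1, the anion exchanger of the red cell membrane, read 25.5 to 372.1 (median 60.9) and 10.8 to 105.1 (median 48.7), with an SE of 0.52 (exact p = 0.162). The groups overlapped widely, and the highest naive value of both was that of rat 44. Without naive rat 44 the calls of Car1, Slc4a1, Ahsp, Hemgn and Car3 were lost, and the exact p of Ahsp, Hemgn and Car3 with all rats was 0.104, 0.321 and 0.458. All 4 tested red blood cell markers were below 0, with a median of -0.68, and 2 fell (Slc4a1 and Ahsp; 50%, beside 3.07% of all genes). The list summed to 25.3 to 162.4 CPM in naive and 27.2 to 131.3 CPM in injured rats.

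Under the same limits the 8 highest were Flt4 (1.00), Atp2a1 (0.94), Ampd1 (0.88), Stc1 (0.83), NM_139104 (0.82), Dohh (0.82), Nxph3 (0.72) and Tfpi2 (0.67). All but Stc1 and NM_139104 were tested only through the group where they were high, so their p values are a description and no support. Atp2a1 and Ampd1 encode the calcium pump and the AMP deaminase of fast skeletal muscle. Atp2a1 read 8.47 to 18.5 in naive and 6.78 to 78.6 in injured rats (SE 0.43, exact p = 0.0552), and its highest value was that of rat 57. Its call was also made in 11 of the 18 fits that left out a rat, and was lost most clearly without naive rat 42. Ampd1 read 2.59 to 24.1 and 13.4 to 25.6 (SE 0.31, exact p = 0.00506). Of 4 tested skeletal muscle markers 1 fell (25%, beside 3.07% of all genes) and 0 rose, with a median of 0.22. The gene that fell was Myom2, a structural protein of the sarcomere, at -0.56 (SE 0.18, exact p = 0.00980). Nxph3, a ligand of neurexins, read 10.4 to 25.0 and 12.0 to 71.3 (SE 0.30, exact p = 0.0293), with its highest value in rat 11, and its call was also made in 16 of the 18 fits that left out a rat, but not without naive rat 49. Tfpi2, an inhibitor of serine proteases, read 9.14 to 12.2 (median 11.1) and 8.03 to 32.4 (median 17.3), with 7 injured rats above every naive rat (SE 0.26, exact p = 0.0336). Dohh, an enzyme of hypusine formation, had its highest values in rats 11 and 57 (79.1 and 57.1), with an SE of 0.38 and an exact p = 0.132. Its call was lost without both, and was also made in 7 of the 18 fits that left out 1 rat. NM_139104 had no matched symbol and read 24.6 to 70.8 and 36.1 to 161.4 (SE 0.31, exact p = 0.0238).

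Cell cycle genes were lower in small numbers. Of 15 genes of cell cycle entry 2 fell (13.3%, beside 3.07% of all genes) and 0 rose, with a median of -0.12, and the averaged level of 7 of 12 injured rats lay below every naive rat. Beside Ccnd1, its partner kinase Cdk6 fell by 0.28 (SE 0.09, exact p = 0.00162), from 74.1 to 87.1 in naive to 54.1 to 77.6 in injured rats, with 10 injured rats under the naive range. Of 19 genes of DNA replication and mitosis 4 fell (Rrm2, Ccna2, Ccnb2 and Mki67; 21.1%, beside 3.07% of all genes) and 0 rose, with a median of -0.10. Mki67 was not called with rats 57 and 11 left out. Rrm2, a subunit of ribonucleotide reductase, fell by 0.38 (SE 0.13, exact p = 0.0122). The mitotic cyclins Ccna2 and Ccnb2 fell by 0.42 (SE 0.17, exact p = 0.0408) and 0.46 (SE 0.19, exact p = 0.0708), and the proliferation marker Mki67 by 0.40 (SE 0.18, exact p = 0.145). Naive rat 44, the rat with the highest red cell genes, was also the highest naive rat for Rrm2 (331.9) and Ccna2 (142.6). Without it the calls of Ccna2, Ccnb2 and Mki67 were lost, and that of Rrm2 was also made.

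Macrophage, lymphocyte and antigen presentation lists held no calls, and the mast cell list did. Of 16 macrophage markers 0 changed by the quasi-likelihood test, with a median of -0.04. The members with the highest level, Lyz2 and Mrc1, had log2 fold changes of -0.03 (SE 0.20, exact p = 0.793) and -0.07 (SE 0.17, exact p = 0.645). Of 8 lymphocyte and 9 antigen presentation genes 0 and 0 changed, with medians of -0.15 and 0.06. Of 6 mast cell genes 2 fell (33.3%, beside 3.07% of all genes) and 0 rose, with a median of -0.42. The averaged level of 10 of 12 injured rats lay below every naive rat. Cpa3, the mast cell carboxypeptidase, read 36.9 to 66.0 (median 52.5) in naive and 15.8 to 51.8 (median 35.8) in injured rats, at -0.60 (SE 0.19, exact p = 0.00312). It was lower in bPYX+NT3 than in bPYX+GFP rats at an unadjusted p under 0.05 (adjusted p = 0.816). Ms4a2, a chain of the IgE receptor, fell by 0.60 (SE 0.22, exact p = 0.0194). Without rats 57 and 11, 4 of the 6 fell, beside 2.85% of all genes. Of 18 interferon response genes 16 were below 0 with a median of -0.29, yet 1 fell (5.56%, beside 3.07% of all genes). It was Mx2 (log2 fold change -0.34, SE 0.16, exact p = 0.157), whose call was also made in 8 of the 18 fits that left out a rat. That call was lost most clearly without naive rat 45 and also without rats 57 and 11.

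Lists of the neurons themselves held few calls. Of 11 genes of neuronal identity 0 changed, 2 were below 0 and the median was 0.11. Avil, an actin regulator particular to sensory neurons, and Stmn2, a regulator of axonal microtubules, had log2 fold changes of 0.14 (SE 0.09, exact p = 0.154) and 0.05 (SE 0.05, exact p = 0.218). Of 11 proprioceptor and large-fibre genes 0 changed, with a median of 0.04. The neurofilaments Nefm and Nefl read 58844 to 81283 and 28019 to 39177 in naive and 59900 to 77454 and 29070 to 38950 in injured rats, at 0.02 (SE 0.07, exact p = 0.700) and 0.06 (SE 0.07, exact p = 0.314). The injured values spanned almost the naive range for both. Of 21 genes that axotomized DRG neurons are known to raise, 0 changed in the pooled contrast, with a median of -0.06. The list median was -0.19 for bPYX+GFP rats and 0.03 for bPYX+NT3 rats. List averages of single rats overlapped, at -0.68 to 0.20 with GFP, -0.14 to 0.88 with NT3 and -1.15 to 0.56 in naive rats. The highest with NT3 were those of rats 17 and 11. Of the members, 4 (19%, beside 2.25% of all genes) differed between the vectors at an unadjusted p under 0.05. These were Arg1, Csrp3, Ecel1 and Stat3, each higher in bPYX+NT3 rats with an adjusted p of 0.816, and the first 3 are named after their values were seen. Arg1, the arginase that axotomy raises, fell in bPYX+GFP rats (-1.02) and was at 0.08 in bPYX+NT3 rats. Gap43, the growth cone protein, read 3152 to 5096 in naive and 3465 to 5544 in injured rats (log2 fold change -0.02, SE 0.10, exact p = 0.871), and Stat3, the signal transducer of the axotomy response, was at 0.06 (SE 0.06, exact p = 0.432). Of 17 nociceptor genes 1 rose (5.88%, beside 1.34% of all genes). It was Calcb, the beta form of calcitonin gene-related peptide, at 0.20 (SE 0.08, exact p = 0.0392), which was not called without naive rat 42.

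Of 101 voltage-gated sodium, potassium and calcium channel genes, the group through which these neurons fire, 3 rose and 1 fell, with a median of 0.03. Kcnq5, a subunit of the M current, read 1229 to 1657 (median 1368) in naive and 1389 to 1923 (median 1667) in injured rats and rose by 0.21 (SE 0.07, exact p = 0.0125), with 7 injured rats above every naive rat. Kcnj4 and Kcnj12, inward rectifiers, rose by 0.72 (SE 0.27, exact p = 0.0448) and 0.13 (SE 0.05, exact p = 0.00765, not called without naive rat 49), and Kcnh8, a channel of the ether-a-go-go family, fell by 0.21 (SE 0.08, exact p = 0.00582). Kcnj4 exceeded 10 reads in 0 naive and 8 injured rats, so it was tested through the group where it was high. The shares of the list, 2.97% higher and 0.990% lower with Kcnj4 counted, stood beside 1.34% and 3.07% over all genes. Kcnj12 was not called with rats 57 and 11 left out, so that 2 rose. The large housekeeping lists gave 0 calls each, over 78 genes of oxidative phosphorylation (median 0.06) and 73 cytosolic ribosomal proteins (median 0.05), as did 16 heat shock proteins (median -0.04). Among other tissues, 3 adipocyte genes included 1 that fell (33.3%, beside 3.07% of all genes). It was the lipase Lpl (-0.50, SE 0.15, exact p = 0.00786), at -0.40 and -0.60 in the vector groups. The other adipocyte genes, Adipoq and Fabp4, were at 0.26 and 0.64 with GFP and at -1.85 and -1.41 with NT3. Both differed between the vectors at an unadjusted p under 0.05 (66.7% of the list, beside 2.25% of all genes, adjusted p = 0.816). Of 6 central glia genes 1 fell (16.7%, beside 3.07% of all genes). It was the oligodendrocyte protein Mog (-0.23, SE 0.09, exact p = 0.0182), which was not called without naive rat 49 or without rats 57 and 11. Leaving those rats out gave 1 call among oxidative phosphorylation genes, the rise of Cox6c. By edgeR's likelihood ratio test the lists with 0 calls had 1 call in heat shock proteins and 0 in the rest named here.

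**Figure D4:**
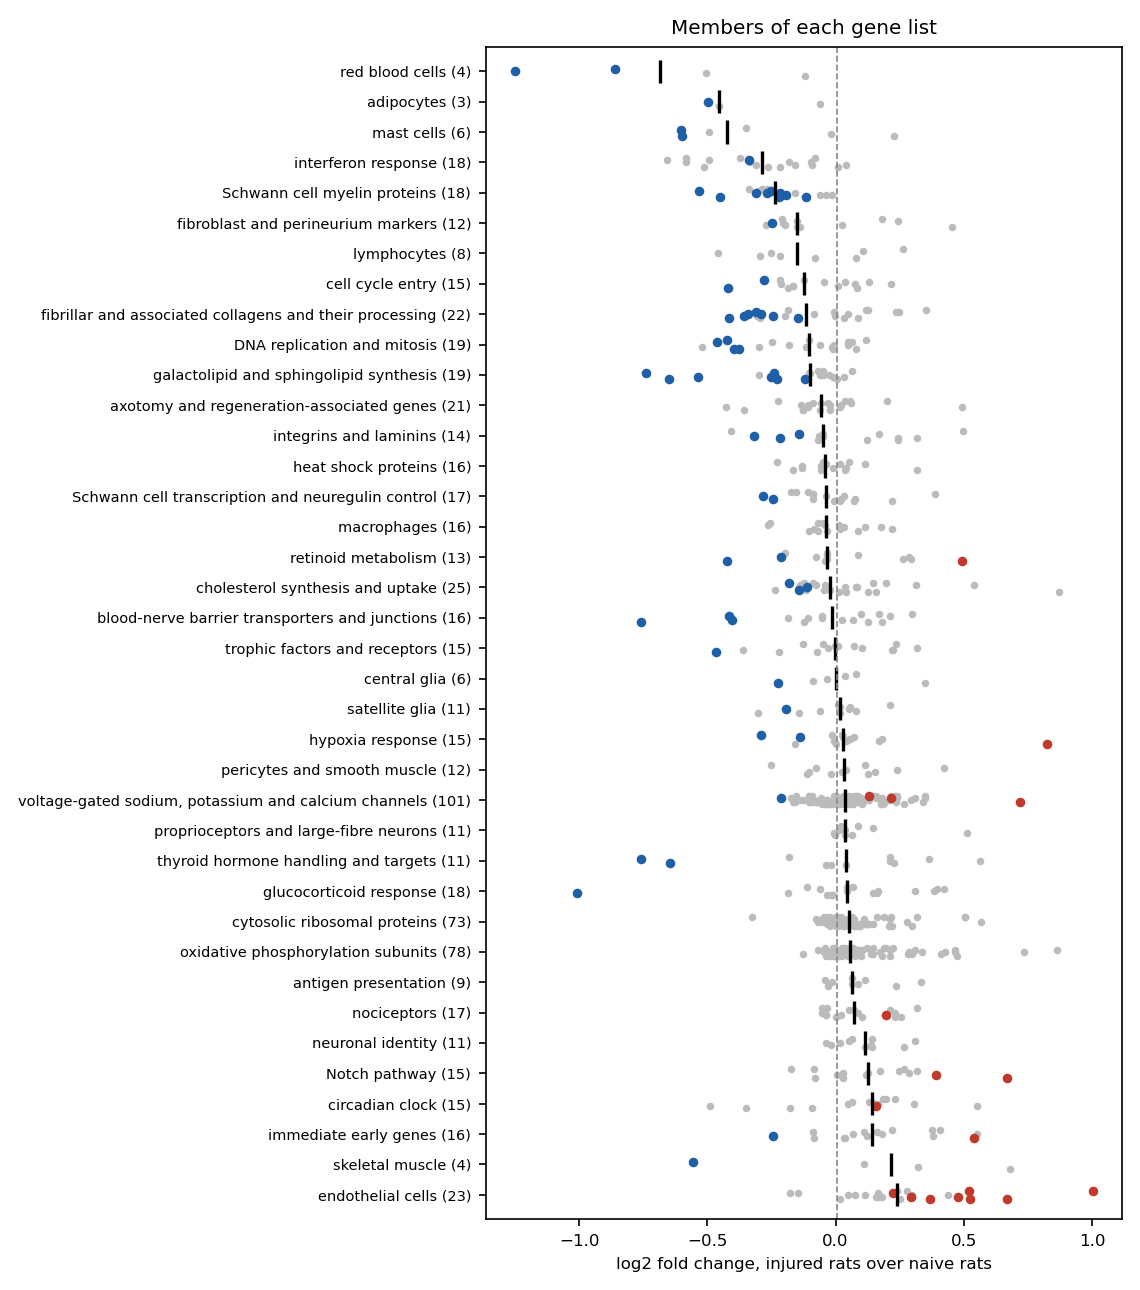
Log2 fold change of injured over naive rats (horizontal axis) for each tested member of 38 gene lists (rows, with the number of genes tested), in blue where a gene fell, red where it rose and grey where it missed an unadjusted p of 0.05. Black bars mark the list medians and the dashed line the median of all genes, 0.0060. Schwann cell myelin proteins lie wholly below 0, and 21 of 23 endothelial genes lie above it.

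The second question was which changes were found in both vector groups. When the vector groups were fitted apart against the same 6 naive rats, 279 genes fell and 83 rose in bPYX+GFP rats, and 320 fell and 266 rose in bPYX+NT3 rats. The smallest adjusted p was 0.305 and 0.651. Between the vector groups 266 genes (2.25%) differed at an unadjusted p under 0.05, and the smallest adjusted p was 0.816. Of the 521 genes that changed in the pooled contrast, 14 differed between the vectors at that threshold. Genes past the threshold in the pooled contrast and in each vector group, in the same direction, and not between the vector groups, numbered 28 higher (0.237%) and 124 lower (1.05%). Their median absolute log2 fold change was 0.31 in each vector group, a match that the rule in part imposes. The number higher was 15 without naive rat 43, 17 without naive rat 44 or bPYX+GFP rat 21, 18 without bPYX+GFP rat 5 and 46 without naive rat 41, and the number lower stayed between 90 and 170.

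Values under each vector are set side by side for some named genes. The genes were chosen by their pooled p and both contrasts use the same 6 naive rats, so that like values are in part fixed by the choice, and the first examples were picked for being alike. The log2 fold change was -0.74 and -0.74 for B3gnt5, -0.76 and -0.76 for Slco1c1, -0.47 and -0.46 for Cntf, and -0.31 and -0.31 for Pmp22, in bPYX+GFP and bPYX+NT3 rats. For Ugt8 it was -0.63 and -0.67 and for Mal -0.44 and -0.46, each with an SE of 0.11 to 0.16. Among matrix and adhesion genes Col14a1 was at -0.35 and -0.34, Col3a1 at -0.35 and -0.37 and Itga6 at -0.32 and -0.31. Among the rises Flt4 was at 0.85 and 1.14, Stc1 at 0.77 and 0.87, Bcl6b at 0.59 and 0.46 and Dll4 at 0.52 and 0.80. The difference between the vectors, with its SE, was 0.29 (0.26) for Flt4 and 0.28 (0.23) for Dll4, both with an adjusted p of 0.816. A p that misses the threshold does not show that the vectors act alike. Of the genes named by rule Cpa3, above, and Stat3 (-0.02 and 0.13, adjusted p = 0.816) differed between the vectors at an unadjusted p under 0.05.

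**Figure D5:**
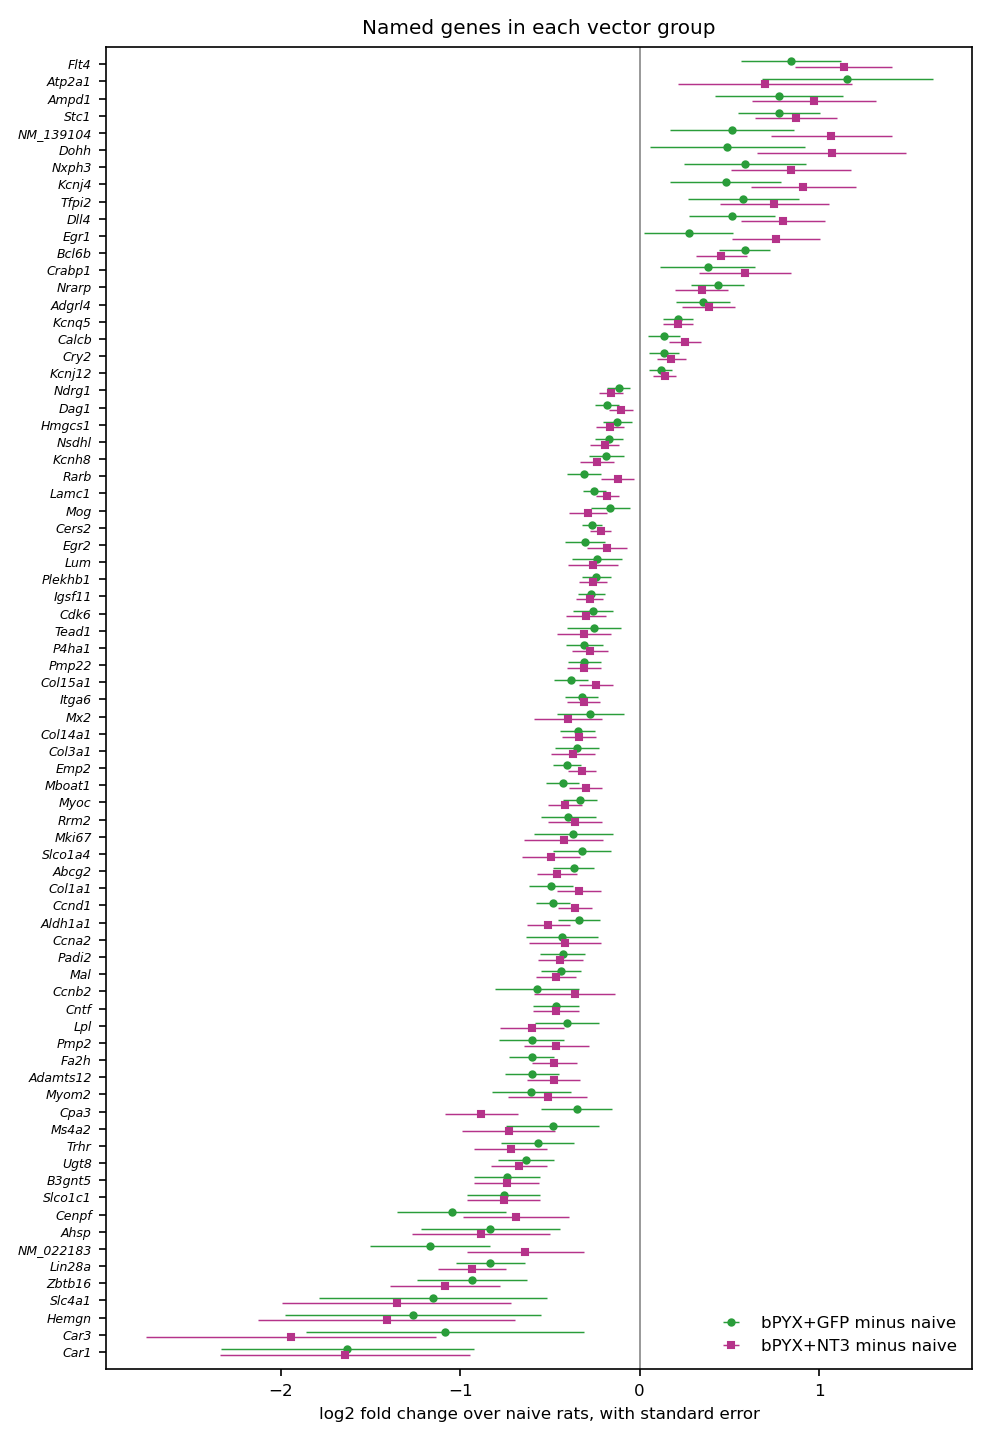
Log2 fold change against the same 6 naive rats, with its standard error, in bPYX+GFP rats (green circles) and bPYX+NT3 rats (purple squares), for each gene named here with an unadjusted p under 0.05 in the pooled comparison. Every gene lies on the same side of 0 under both vectors, from Car1 at -1.63 and -1.64 to Flt4 at 0.85 and 1.14. The choice by pooled p, and for some genes by sign, largely fixes this, as all 521 genes past the threshold share the sign.

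Promoters are shown for a gene of each of 3 lists described above, chosen after their values were seen. They are the RefSeq sequences of build GRCr8, 250 bases before to 50 after the annotated start, of Mal (chr3:135341374-135341673, minus strand) and Ugt8 (chr2:217007118-217007417, minus strand), which fell, and of Flt4 (chr10:34414584-34414883, plus strand), which rose. Capitals mark the GC box GGGCGG and its reverse complement CCGCCC, found 2, 3 and 3 times.
Mal: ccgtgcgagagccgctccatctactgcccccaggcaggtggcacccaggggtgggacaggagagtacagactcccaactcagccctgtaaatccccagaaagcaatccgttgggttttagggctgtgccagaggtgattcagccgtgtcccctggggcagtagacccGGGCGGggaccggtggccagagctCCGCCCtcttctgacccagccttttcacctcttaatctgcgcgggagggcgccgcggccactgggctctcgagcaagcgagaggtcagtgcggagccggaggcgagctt
Ugt8: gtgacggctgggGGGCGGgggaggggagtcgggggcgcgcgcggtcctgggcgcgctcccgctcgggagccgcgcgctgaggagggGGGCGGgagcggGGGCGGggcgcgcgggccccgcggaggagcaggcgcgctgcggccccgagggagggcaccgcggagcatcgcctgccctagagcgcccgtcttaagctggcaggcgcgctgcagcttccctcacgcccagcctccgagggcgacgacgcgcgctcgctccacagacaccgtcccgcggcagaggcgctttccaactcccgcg
Flt4: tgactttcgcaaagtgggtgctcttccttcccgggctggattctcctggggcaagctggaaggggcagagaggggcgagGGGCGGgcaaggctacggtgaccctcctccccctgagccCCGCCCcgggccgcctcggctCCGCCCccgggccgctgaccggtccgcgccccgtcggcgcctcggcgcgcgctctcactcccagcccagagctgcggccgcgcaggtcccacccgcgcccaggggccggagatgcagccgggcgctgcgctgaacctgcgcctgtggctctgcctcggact
On either strand a GC box was present in 60.1% of the 9253 promoters of tested genes, and in 5 of 7 promoters of myelin genes that fell, 4 of 6 of lipid genes that fell and 4 of 5 of endothelial genes that rose. The SOX letters ACAAAG were present in 13.7% of promoters of tested genes, the EGR letters GTGGGCG in 13.2% and the ETS letters CAGGAAG in 12.7%. Among the same 7, 6 and 5 promoters the SOX letters were found in 1, 1 and 1, the EGR letters in 1, 0 and 0 and the ETS letters in 2, 0 and 0. A GC box and the EGR letters can overlap by part of their bases. The presence of a motif in these windows is a description of the letters only.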

How the data were processed

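RNA of the C6 to C8 ganglia of each of 18 rats was enriched for poly(A), made into stranded libraries and sequenced as read-pairs of 50 bases. Per the labels and the study's methods, the authors demultiplexed with bcl2fastq (version 1.8.4), aligned with TopHat2 to the rat build Rnor_6.0, kept the best of each set of duplicates (Picard), and counted read-pairs per RefSeq transcript identifier with HTSeq. The deposited values are raw counts, whole numbers without normalization, in a table of 15075 identifiers and in a file per rat. Read-pairs that several identifiers share were left out of the counts, so a gene with several identifiers can be undercounted. Names were matched through a RefSeq table of build GRCr8, used for names only (14187 identifiers matched), and the identifier with the highest mean stood for a symbol with several. Columns of per-sample values not used numbered 0.

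Columns were joined to rats by rat number and to groups by the labels' rule for rat numbers. Genes that exceeded 10 reads in 6 rats or more were tested in edgeR 4.0.16 (R 4.3.3) with TMM factors, glmQLFit and glmQLFTest, and p values were adjusted by Benjamini-Hochberg over all 11821 genes. The vector groups came from 1 fit with 3 groups. Single genes were also tested by a two-sided exact permutation test over all 18564 regroupings of 12 and 6 rats, on log2 CPM with a prior count of 2. Separate rats are the replicates (n = 6 naive and 12 injured). Alternatives were other tools (edgeR's likelihood ratio test, DESeq2, limma-voom), scalings, filters and covariates, leaving out each rat, and the grouping by title. The fit was tested on simulated data. The members and the 38 gene lists were chosen with earlier results of these data known. Members named were the 10 smallest p values, the 8 lowest and 8 highest log2 fold changes among genes with an unadjusted p under 0.05, the same sign under both vectors and at least 1 CPM, and up to 4 genes per list with the smallest p under 0.05, or the 2 most abundant in described lists with none. Other genes are said to be named after their values were seen. A few genes that these rules would name are not reported here.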

Additional observations from a re-analysis of the deposited data

Results flagged for a closer look

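Values were looked at in 270 sets of 6 rats, for each of 85 named genes and 5 library measures in each group, and 28 lay far from the other 5 rats of their group. Chance alone flags about 1 in 20 sets. Rat 57 of the bPYX+GFP group held 10 of them. Beside its lower share of read-pairs outside genes (31.7% against 33.6% to 34.2%) and its higher share overlapping several genes (3.31% against 2.79% to 2.98%), it had the lowest Adgrl4 (453.5 against 813.2 to 882.6) and Ccnb2 (20.5 against 30.4 to 33.9) of its group. It had the highest Myoc (5059), Flt4 (27.7), Egr1 (92.8), Atp2a1 (78.6), Dohh (57.1) and Stat3 (4833). In the bPYX+NT3 group rat 11 stood apart by the same shares (30.8% against 32.9% to 34.2%, and 3.41% against 2.88% to 3.04%). It had the lowest Ugt8 (2529 against 4169 to 4392) and Mal (4395 against 5500 to 5972) and the highest Nxph3 (71.3) and Dohh (79.1).

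In the naive group rat 44 had the highest Car1 (202.2 against 8.13 to 55.4), Ahsp (182.8 against 25.4 to 78.5), Rrm2 (331.9 against 174.9 to 227.5) and Ccna2 (142.6 against 58.7 to 81.8). Naive rat 49 had the highest Cntf (3820), naive rat 41 the lowest Abcg2 (830.3) and naive rat 43 the highest Kcnj4 (10.2). Of the remaining injured rats, rat 17 had the highest Car3 (53.1), Mx2 (1481) and Lyz2 (6869) of the bPYX+NT3 group, and rats 21 and 52 the highest Car1 (44.6) and Stmn2 (30869) of the bPYX+GFP group.

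The injury contrast of 2 of the 85 genes named by rule or added differed between the vector groups at an unadjusted p under 0.05. The log2 fold change of Cpa3 in bPYX+NT3 rats was below that in bPYX+GFP rats by -0.53, and that of Stat3 was above it by 0.15, both with an adjusted p of 0.816. List members named after their values were seen also differed at that threshold. The difference, bPYX+NT3 minus bPYX+GFP, was 1.10 for Arg1, 1.52 for Csrp3, 1.07 for Ecel1, 1.26 for Gfap and 0.42 for Kcnj10, and it was -2.11 for Adipoq and -2.05 for Fabp4, each with an adjusted p of 0.816.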

How the results depend on the processing

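The count of 0 genes at an adjusted p under 0.05 was 23 with edgeR's likelihood ratio test, 20 with DESeq2, 22 with the share of read-pairs outside genes as a covariate, and 0 to 2 when a rat was left out. The number of genes higher at an unadjusted p under 0.05 (158) was 267 with that covariate, 85 with bPYX+GFP rats alone, 361 with bPYX+NT3 rats alone and 78 to 278 when a rat was left out. The number lower (363) was 201 when rats were grouped by the titles of the records and 269 to 466 when a rat was left out. Genes common to both vectors numbered 15 to 46 higher and 90 to 170 lower when a rat was left out. All other alternatives to these counts stayed within 1.5 times. The cause of these moves was not tested. With bPYX+GFP rats alone against naive 22 calls ended among 84 named genes, and with bPYX+NT3 rats alone 16 among 84, in fits of fewer rats. Of the 85 named genes, limma-voom ended 10 calls, leaving out naive rat 44 ended 15, naive rat 49 ended 12, and naive rats 42 and 45 ended 11 each. Without rats 57 and 11, a choice made after seeing the data, 14 calls ended.

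Directions of the named genes reversed mainly under the grouping by title, which by its construction puts all 6 naive rats among the titled injured and 6 injured rats under the naive title. There 79 of the 85 log2 fold changes changed sign. These were Emp2 0.18, Lin28a 0.44, Ccnd1 0.11, Ugt8 0.41, Fa2h 0.30, B3gnt5 0.37, Mal 0.27, Cers2 0.076, Myoc 0.21, Slco1c1 0.42, Mboat1 0.13, Cntf 0.25, Igsf11 0.14. Likewise above 0 were Abcg2 0.31, Adamts12 0.25, Col14a1 0.24, Padi2 0.20, Itga6 0.16, Aldh1a1 0.23, Pmp22 0.20, Zbtb16 0.73, Lamc1 0.057, Col1a1 0.13, Trhr 0.40, Col15a1 0.079, Plekhb1 0.13, Col3a1 0.15. So were Pmp2 0.51, P4ha1 0.041, Cenpf 0.32, Lpl 0.22, Cpa3 0.27, NM_022183 0.72, Myom2 0.21, Cdk6 0.095, Rrm2 0.22, Slco1a4 0.27, Car1 1.49, Ms4a2 0.37, Nsdhl 0.12, Ahsp 0.58. Also above 0 were Kcnh8 0.18, Ccna2 0.40, Egr2 0.023, Ndrg1 0.020, Rarb 0.11, Dag1 0.024, Mog 0.10, Slc4a1 0.93, Ccnb2 0.22, Hemgn 1.22, Tead1 0.21, Car3 0.29. The last above 0 were Hmgcs1 0.092, Mki67 0.35, Lum 0.22, Mx2 0.10. Below 0, where the comparison by rat number gave values above 0, were Bcl6b -0.31, Stc1 -0.56, Flt4 -0.52, Dll4 -0.60, Nrarp -0.30, Kcnq5 -0.027, Adgrl4 -0.26, Ampd1 -0.27, Kcnj4 -0.16, NM_139104 -0.86, Tfpi2 -0.72, Calcb -0.16, Nxph3 -0.55, Kcnj12 -0.10. The last below 0 were Egr1 -0.40, Cry2 -0.033, Crabp1 -0.22, Dohh -0.60, Pecam1 -0.30, Avil -0.027, Stmn2 -0.022, Stat3 -0.057. Elsewhere the reversals were of genes near 0. Stat3 was at -0.016 with bPYX+GFP rats alone, and Nefm and Gap43 were at -0.047 and 0.038 with bPYX+NT3 rats alone. Without rats 57 and 11 Mrc1 was at 0.010. Over the fits that left out a rat, the log2 fold change ran from -0.14 to 0.013 for Mrc1, from -0.021 to 0.074 for Nefm, from -0.10 to 0.023 for Gap43 and from -0.16 to 0.073 for Lyz2.

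The number in the titles does not come with a statement that it pairs rats. With it as a replicate block 0 genes passed an adjusted p of 0.05, 178 were higher and 388 lower at an unadjusted p under 0.05, and 6 of the 85 named genes lost their call. Deviations of same-numbered rats correlated across genes at -0.40 to 0.53 (median 0.22, 18 pairs), and those of differently numbered rats at -0.65 to 0.82 (median -0.013, 90 pairs). Not every same-numbered pair was over 0.1, so the number is not taken as a pairing. A prior count of 0.5 in place of 2 ended 1 exact permutation call, that of Kcnj4. In simulated data of this design 90.6% of genes changed by 1 on the log2 scale and 55.6% of those changed by 0.5 were recovered. Smaller changes were not simulated.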

Other observations

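Of the 19 genes that both edgeR's likelihood ratio test and DESeq2 called at an adjusted p under 0.05, 4 are described here. They were named after these calls were seen, and all 4 were lower in injured rats. Adamts12, a secreted metalloprotease of the matrix, fell by 0.54 on the log2 scale in the quasi-likelihood test (SE 0.13, adjusted p = 0.246), and Padi2, an enzyme that citrullinates proteins including myelin basic protein, fell by 0.44 (SE 0.10, adjusted p = 0.249). Mboat1, an acyltransferase of membrane phospholipids, fell by 0.36 (SE 0.08), and Igsf11, an adhesion protein of the immunoglobulin superfamily, fell by 0.27 (SE 0.06), both with an adjusted p of 0.246. The log2 fold changes under GFP and NT3 were -0.43 and -0.44 for Padi2 and -0.27 and -0.28 for Igsf11.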
